A study of Mus musculus with 6 samples.

Results

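Venous endothelial cells line the veins and the small vessels that drain into them. In this single-cell RNA data set from young mice they were selected by marker transcripts, since no annotation of cell types was used. A barcode was kept when at least 500 genes had a UMI (unique molecular identifier, which stands for 1 captured transcript) and at most 10% of its UMIs came from mitochondrial genes. It counted as endothelial with a UMI of at least 3 of the 6 genes Pecam1, Cldn5, Cdh5, Flt1, Esam and Egfl7. It counted as venous with a UMI of at least 3 of the 6 genes Nr2f2, Vwf, Ackr1, Il1r1, Vcam1 and Tmem252, fewer than 3 of the 8 arterial genes Bmx, Sema3g, Gja4, Gja5, Fbln2, Fbln5, Eln and Gkn3, and no UMI of Top2a, a topoisomerase of dividing cells. Of 18568 barcodes, 15259 passed the quality limits, 14165 were endothelial and 2143 met the venous rule. The 9497 endothelial cells that met the arterial and Top2a conditions but had fewer than 3 venous markers are called other endothelial cells below. The levels of the genes named in the rule chose the cells, so they are described and not tested.

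As background, veins of the brain are the vessels where leukocytes leave the blood, and their endothelium carries adhesion molecules and chemokine-binding receptors for this. Nr2f2 encodes COUP-TFII, a nuclear receptor that sets venous identity, Vwf encodes the clotting protein von Willebrand factor, and Ackr1 encodes a chemokine-binding receptor of venules. Il1r1 is the receptor for interleukin 1, Vcam1 is an adhesion molecule for leukocytes, and Tmem252 encodes a membrane protein of little-known function. Cerebral cavernous malformations, the lesions that follow loss of Pdcd10 (also called Ccm3) from endothelium, are enlarged, leaky vessels that form mainly in the venous bed. Pdcd10 protein acts with Krit1 and Ccm2, and loss of this complex is known to raise the flow-responsive factors Klf2 and Klf4.

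The 6 groups had 1 library each. All mice carried the tamoxifen-inducible Cre of the Mfsd2a gene (Mfsd2a-CreERT2) and received tamoxifen. WT mice had Cre alone and KO mice were Mfsd2a-CreERT2:Pdcd10fl/fl, and tamoxifen was given at postnatal day (P) 1 with harvest at P6 or P10. The other groups were KO mice at P9 treated with vehicle or with rapamycin, which inhibits the mTORC1 kinase complex, and for these the labels give no tamoxifen day. Mfsd2a encodes a lipid transporter of brain capillary endothelium, so Cre activity depends on that promoter, and which endothelial cells recombined was not measured. The labels do not say whether a library came from 1 animal or several, or whether separate animals gave each library. The p-values below thus measure only the spread between these libraries. Within a pair of libraries there is no replicate check and no p-value.

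The venous cells numbered 176 in WT and 100 in KO at P6, 277 and 348 at P10, and 805 with vehicle and 437 with rapamycin, with 1641424 (KO at P6) to 9270766 (vehicle) UMIs in sum. The labels name retina as the tissue, while the title and design text of the series name brain. Summed markers of retina reached 2.80 to 8.55 UMIs per 1000000 (CPM) in venous cells, and Rcvrn, the recoverin gene of photoreceptors, was at 0 throughout. The P9 libraries shared no barcode with the others but shared 420 barcodes with each other, which were 6.95% of the vehicle and 18.3% of the rapamycin barcodes. Those barcodes were shallow, with medians of 835 and 611.5 UMIs, and 1 vehicle and 2 rapamycin venous cells were among them. Levels of the P9 libraries are printed beside those of P6 and P10, but ratios were taken only within the P9 pair. All levels below are CPM of the summed venous UMIs of a library, and fewer cells with a transcript and less transcript per cell cannot be told apart in such a sum.

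The venous markers were not equally informative. Tmem252 was present in 94.8% to 100% of venous cells across the libraries, and in 54.7% to 70.1% of other endothelial cells. Nr2f2 had a UMI in 67.6% and 69.0% in WT and KO at P6, 67.1% and 53.4% at P10, and 70.1% with vehicle and 71.6% with rapamycin, against 9.15% to 18.2% of other endothelial cells. Vwf had a UMI in 90.9% and 65.0% in WT and KO at P6, 89.5% and 69.5% at P10, and 62.1% with vehicle and 87.9% with rapamycin, against 24.5% to 48.5%. In every library the venous cells therefore exceeded the other endothelial cells for these 3 markers, as the rule requires. These shares were counted at unequal depth. With each cell thinned to equal depth, as for Icam1 below, venous cells still lay above the others in each library. The gap was small for Tmem252 in WT at P6 (44.3% against 41.0%) and Vwf in KO at P6 (17% against 14.2%). In WT at P10 it was wider (Tmem252 55.1% against 35.0%, Vwf 42.0% against 16.7%). Nr2f2 was then found in 14% to 23.4% against 2.54% to 7.57%.

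Ackr1 and Vcam1 differed between conditions within the venous cells. Ackr1 had a UMI in 19.9% and 33% in WT and KO at P6, 17.3% and 43.7% at P10, and 42.5% with vehicle and 16.7% with rapamycin. Vcam1 had a UMI in 23.3% and 48.0% in WT and KO at P6, 13.7% and 48.0% at P10, and 44.8% with vehicle and 14.2% with rapamycin. Both were more frequent in the 3 KO libraries without rapamycin than in the WT libraries and the rapamycin library. Il1r1 had a UMI in 21.6% and 12% in WT and KO at P6, 37.9% and 29.6% at P10, and 26.2% with vehicle and 45.5% with rapamycin. It was lower in KO than in WT at both ages. The rapamycin cells were deeper than the vehicle cells. With each cell thinned to equal depth, Il1r1 was found in 6.62% with vehicle and 6.88% with rapamycin. At P6 it was then found in 2.84% and 0% in WT and KO, and at P10 in 11.3% and 8.53%. A UMI of Ackr1 or Vcam1 was held by 39.8% and 59.0% in WT and KO at P6, 28.5% and 65.5% at P10, and 62.6% with vehicle and 25.6% with rapamycin. The trio Tmem252, Vwf and Nr2f2 was held by 58.5% and 43.0% in WT and KO at P6, 56.0% and 31.3% at P10, and 41.4% with vehicle and 58.4% with rapamycin. At full depth the rule thus admitted more cells through Ackr1 and Vcam1 in untreated KO and more through Vwf, Nr2f2 and Tmem252 in WT and with rapamycin. In the P9 pair this did not hold for each gene at equal depth. After thinning, Nr2f2 was found in 22.1% with vehicle and 17.7% with rapamycin, and Tmem252 in 50.8% and 42.7%. Vwf was then found in 31.2% and 35.6%. In kept cells with no UMI of the 6 endothelial genes, Nr2f2 was found in 0% to 15.4%, Ackr1 in 0% to 7.69% and Vcam1 in 0% to 26.3% (highest in KO at P10, 5 of 19 cells), at medians of 839 to 4428 UMIs. Those cells numbered 13 to 375 per library, and whether they made these transcripts themselves was not tested.

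Venous cells were deeper than other endothelial cells in all 6 libraries, and a cell with more UMIs has more chances to show 3 markers. Median UMIs per cell were 11768.5 and 13683 in WT and KO at P6, 9044 and 9513.5 at P10, and 9612 with vehicle and 16417 with rapamycin. For other endothelial cells they were 6034.5 and 7849 in WT and KO at P6, 4591.5 and 5840.5 at P10, and 6424 with vehicle and 9103 with rapamycin. Most venous cells stood just inside the threshold, with exactly 3 markers in 67.6% (vehicle) to 80.7% (WT at P6) of them. Cells just outside it, with 2 markers, numbered 445 and 235 in WT and KO at P6, 800 and 712 at P10, and 921 with vehicle and 479 with rapamycin. Their median depth was 7433 and 10745 in WT and KO at P6, 6644.5 and 7797.5 at P10, and 8227 with vehicle and 10884 with rapamycin UMIs. The cells with 3 markers were deeper, with medians of 11073.5 and 13121.5 in WT and KO at P6, 8873.5 and 9312.5 at P10, and 9554.5 with vehicle and 15457.5 with rapamycin UMIs. Icam1, which the rule did not use, measured 1259 and 962 CPM in WT and KO at P6, 1512 and 1526 CPM at P10, and 355 CPM with vehicle and 403 CPM with rapamycin in cells with 2 markers. In cells with 3 markers it was higher in each library, at 1534 and 1322 CPM in WT and KO at P6, 1969 and 2009 CPM at P10, and 499 CPM with vehicle and 489 CPM with rapamycin. Mfsd2a ran the opposite way, with 654 and 499 CPM in WT and KO at P6, 721 and 234 CPM at P10, and 187 CPM with vehicle and 368 CPM with rapamycin in cells with 2 markers. In cells with 3 markers it was 425 and 376 CPM in WT and KO at P6, 540.3 and 185 CPM at P10, and 125 CPM with vehicle and 276 CPM with rapamycin. Both genes differed across the threshold by less than 2-fold in each library.

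Compared with other endothelial cells of the same library, the venous cells had more transcript of the chemokines Cxcl1 and Cxcl2 and the adhesion genes Icam1 and Madcam1, and less of capillary and barrier genes. This contrast is a description, because the rule selected on it. Of 4629 genes with enough UMIs in every library, 498 (10.8%) were higher and 864 (18.7%) lower in venous cells in all 6 libraries. None reached 2-fold higher in all 6 (0.0%), and 3 genes (0.0648%) were at least 2-fold lower in all 6, namely Slco1a4, Fgfbp1 and Cxcl12. The neutrophil chemokine Cxcl2 had log2 ratios of 1.05 and 1.74 in WT and KO at P6, 1.01 and 0.91 at P10, and 1.11 with vehicle and 1.84 with rapamycin. Its relative Cxcl1 ranged from 0.80 to 1.48, and Madcam1, an addressin that binds lymphocytes, from 0.65 to 1.66. The adhesion molecule Icam1 ranged from 0.50 to 0.81. All 4 were higher in the venous cells of each library. The leukocyte adhesion and chemokine list as a whole went both ways, with these 4 of 10 measured members higher and 4 (Cd34, Podxl, Jam2 and Cxcl12) lower in all 6 libraries and a median of -0.059. Under the rule after thinning, which leaves 10 to 158 venous cells per library, the median log2 ratio of Madcam1 was -0.26.

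Of 22 further venous markers that the rule did not use, 10 had enough UMIs for this comparison, with a median log2 ratio of 0.19. The 5 higher in all 6 libraries were Icam1, the protease gene Ctsc (0.34 to 1.49), the semaphorin and VEGF-C receptor Nrp2 (0.0046 to 1.06, lowest in KO at P6), the carboxypeptidase Prcp and the early response gene Ier3. The sialomucin Emcn and the carbonic anhydrase Car4 were lower in all 6. Over all 4629 genes with enough UMIs, 10.8% were higher and 18.7% lower in all 6. Car4 is also a member of the capillary list below and is counted in both. The amino acid transporter Slc38a5, listed here as venous, had log2 ratios of -0.10 and -0.26 in WT and KO at P6, -0.23 and 0.10 at P10, and -0.12 with vehicle and -0.24 with rapamycin, lower in 5 of 6. Ephb4, the receptor tyrosine kinase of veins, ranged from -0.34 to 0.25 and the apelin receptor Aplnr from -0.039 to 0.44, both near 0. Selp and Lrg1, made by venules, were nearly absent at P6, with 0 and 1.83 CPM of Selp in WT and KO. Beyond the 6 rule markers, Icam1 and Ctsc thus ran with the label venous in all 6 libraries and Nrp2 only slightly in KO at P6, while Emcn, Car4, Ephb4 and Slc38a5 did not.

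When each cell was thinned to 2000 UMIs, so that depth was equal, Icam1 had a UMI in venous cells at shares of 81.8% and 74.0% in WT and KO at P6, 78.8% and 78.5% at P10, and 50.7% with vehicle and 45.6% with rapamycin. In other endothelial cells the thinned shares were 59.2% and 55.4% in WT and KO at P6, 55.4% and 59.5% at P10, and 30.5% with vehicle and 26.0% with rapamycin, lower in each library. Nrp2 was found after thinning in 8.0% to 31.7% of venous and 5.93% to 25.1% of other endothelial cells, and in KO at P6 and with rapamycin its shares differed by less than 1 percentage point. Mfsd2a was found in 13.1% to 50.0% of venous against 24.8% to 73.5% of other cells, and was lower in venous cells in each library.

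Of the response genes of NF-kB, the transcription factor activated by interleukin 1, most were higher in venous cells. Of all 4629 genes with enough UMIs, 10.8% were higher and 18.7% lower in venous cells in all 6 libraries. Of the 14 response genes measured, 9 were higher in all 6 libraries and none lower in all 6, with a list median of 0.49 against -0.039 for all genes. They were the inhibitor genes Nfkbia and Nfkbiz, the subunits Nfkb1, Nfkb2 and Relb, and Icam1, Cxcl1, Irf1 and Cebpd. Il1r1 itself, the receptor upstream of this pathway, was one of the rule's genes. Capillary markers ran lower, with 11 of 13 lower in all 6 libraries, none higher in all 6, and a median of -0.59. Blood-brain barrier genes had 15 of 20 lower in all 6 libraries and a median of -0.37. The organic anion transporter Slco1c1 ranged from -0.96 to -0.73, the proteoglycan Spock2 from -1.06 to -0.69, and Mfsd2a from -0.83 to -0.47. Arterial markers outside the rule were lower in all 6 libraries for 4 of 8 and higher in all 6 for none.

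**Figure D1:**
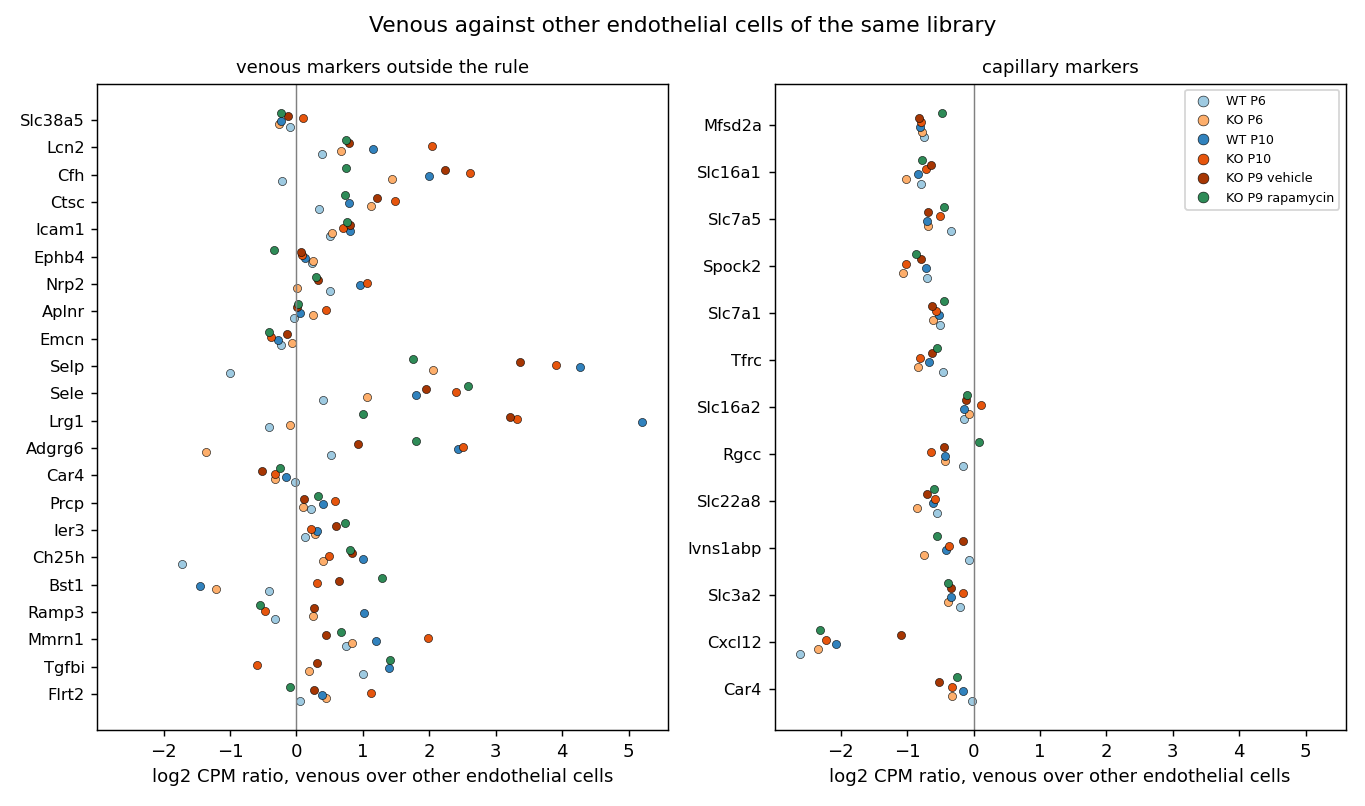
Log2 ratios of CPM (horizontal axis) in venous over other endothelial cells, 1 point per library. Venous markers outside the rule are on the left and capillary markers on the right. Icam1 and Ctsc lie above 0 and Emcn, Spock2 and Mfsd2a below 0 in all 6 libraries.

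Venous cells made up 15.1% of endothelial cells over all libraries. At P6 the WT share was 12.8% (exact 95% interval 11 to 14.6) and the KO share 11.7% (9.60 to 14.0). At P10 it was 7.82% (6.96 to 8.76) and 11.5% (10.4 to 12.7). With vehicle it was 21.4% (20.1 to 22.7) and with rapamycin 27.3% (25.1 to 29.5). The P6 intervals overlap, while KO was above WT at P10 and rapamycin above vehicle by more than counting error, which is all that these intervals cover.

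The order of these shares moved with the rule. When the rule was applied after thinning each cell to 2000 UMIs, it kept 0.927% and 1.26% in WT and KO at P6, 1.33% and 2.40% at P10, and 4.85% with vehicle and 2.14% with rapamycin, so that vehicle then lay above rapamycin. A rule of at least 2 of Nr2f2, Il1r1, Tmem252 and Vwf, without Ackr1 and Vcam1, kept 43.0% and 34.4% in WT and KO at P6, 29.2% and 30.3% at P10, and 38.6% with vehicle and 55.5% with rapamycin, and KO then lay below WT at P6 and close to it at P10. The sort gate, which is not given in the sources used here, can set the shares as well. For these reasons no order of venous abundance between conditions is read from them. A further 611 endothelial cells met the marker conditions but held a Top2a UMI and were left out by the rule, namely 28 and 39 in WT and KO at P6, 19 and 88 at P10, and 344 with vehicle and 93 with rapamycin.

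**Figure D2:**
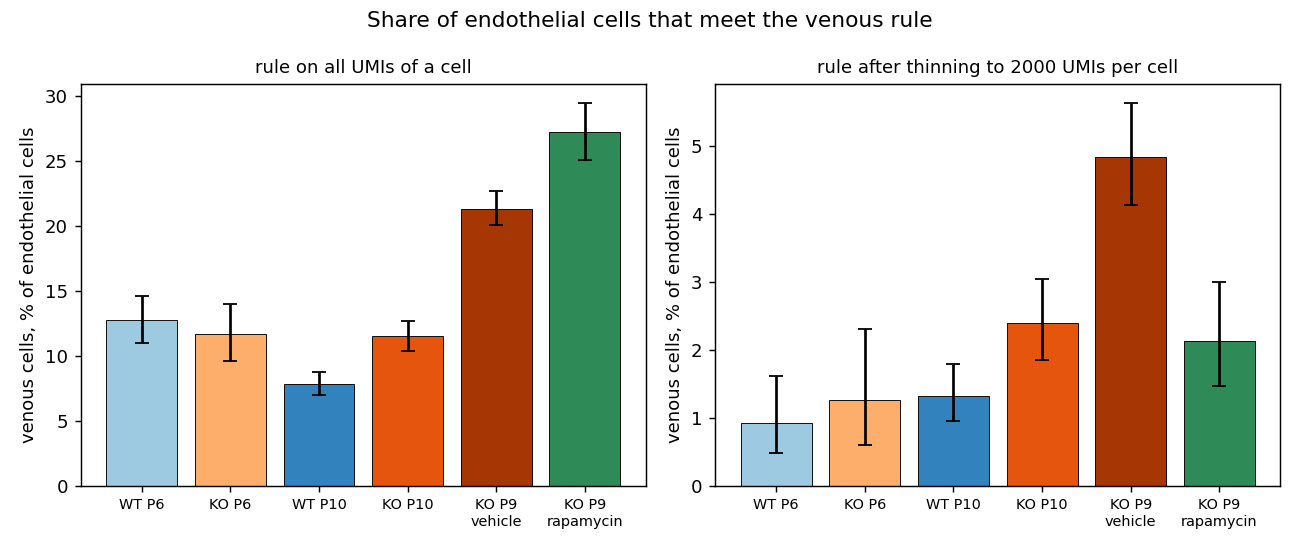
Venous cells in percent of endothelial cells (vertical axis, from 0) for the 6 libraries, with the rule on all UMIs (left) and after thinning to 2000 UMIs per cell (right). Bars are shares, error bars are exact 95% binomial intervals, and rapamycin is the highest library on the left while vehicle is the highest on the right.

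Within the venous cells, those with a UMI of Ackr1 or Vcam1 differed from those with neither. Bmp2, a bone morphogenetic protein, had log2 ratios of 1.63 and 2.05 in WT and KO at P6, 1.97 and 1.73 at P10, and 2.36 with vehicle and 0.82 with rapamycin, higher in each library. Icam1 had 0.54 and 0.40 in WT and KO at P6, 0.43 and 0.72 at P10, and 1.23 with vehicle and 1.63 with rapamycin, likewise higher in each. Cxcl2 was 0.79 and 3.01 in WT and KO at P6, 0.57 and 0.59 at P10, and 2.15 with vehicle and 2.34 with rapamycin. The leukocyte adhesion molecule Sele, the prostaglandin synthase Ptgs2, Cxcl1, Ctsc and the platelet-adhesive protein Mmrn1 were also higher in all 6 libraries. For Sele this rested on few UMIs, 2 against 0 in WT at P6, 3 against 0 in KO at P6 and 5 against 2 in WT at P10. Lower in all 6 were the tip cell genes Apln, with -0.51 and -0.73 in WT and KO at P6, -0.97 and -1.91 at P10, and -2.18 with vehicle and -2.17 with rapamycin, and Angpt2, with -0.55 and -0.76 in WT and KO at P6, -0.70 and -1.82 at P10, and -2.15 with vehicle and -3.02 with rapamycin. Mfsd2a, Slco1c1 and the pericyte genes Rgs5, Higd1b and Vtn were lower in all 6 as well. Since Ackr1 and Vcam1 were used to choose the cells and this division was made by them, these ratios are a description.

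Transcripts of other cell types were present in the venous sums, among them those of pericytes, the contractile cells that wrap capillaries. All 10 pericyte markers had UMIs in each library, and their summed level was 965 and 1772 CPM in WT and KO at P6, 1326 and 545 CPM at P10, and 419.9 with vehicle and 584 with rapamycin. Of venous cells, 29.5% and 31% in WT and KO at P6, 20.2% and 10.1% at P10, and 7.20% with vehicle and 11.2% with rapamycin held at least 2 pericyte markers, against 3.41% to 28.5% of other endothelial cells. Summed red cell markers, haemoglobins and Alas2, were 1379 and 14.0 CPM in WT and KO at P6, 10335.5 and 1793 CPM at P10, and 0.431 with vehicle and 1462 with rapamycin. They were thus high in WT at P10 and almost 0 with vehicle. Smooth muscle markers summed to 96.3 and 113 CPM in WT and KO at P6, 193 and 50.6 CPM at P10, and 72.2 with vehicle and 48.1 with rapamycin, with Lmod1 at 0 in 4 of 6 libraries. Microglia and macrophage markers summed to 27.0 to 82.3 CPM and astrocyte markers to 47.0 to 207 CPM. Tmem119, P2ry12 or both were at 0 in each library. Neuron markers summed to 45.7 to 165 CPM, lymphatic markers to 32.9 to 72.3 CPM, mostly of Flt4, and fibroblast markers to 6.75 to 63.1 CPM. Platelet, oligodendrocyte and choroid plexus markers summed to at most 23.9 CPM, with Mog at 0 in all 6 libraries. The part of these transcripts in the results below was not tested, apart from a fit without cells that hold at least 2 markers of pericytes, microglia, astrocytes or neurons.

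The genotype comparison asks what differed in venous cells after deletion of Pdcd10. UMIs were summed over the venous cells of the 4 libraries of P6 and P10 and tested with edgeR's quasi-likelihood test, with harvest age as a term and Benjamini-Hochberg adjustment over all genes at 0.05. Of 9683 genes, 316 (3.26%) passed, of which 193 (1.99%) rose and 123 (1.27%) fell in KO. The median over all genes was -0.014 on the log2 scale. Pdcd10 (chromosome 3, 75516490 to 75556856, minus strand, GENCODE annotation of GRCm38, which is mm10) measured 81.0 and 53.6 CPM in WT and KO at P6, 79.0 and 49.8 CPM at P10, and 46.4 with vehicle and 82.4 with rapamycin. Both KO libraries lay below both WT libraries, with a log2 difference of -0.68 ± 0.18 (SE, edgeR adjusted p = 0.0653), and it did not pass. In other endothelial cells Pdcd10 fell by 0.84 (edgeR adjusted p = 0.000463). The sources used here do not say whether the captured 3' end lies in the deleted part, so the level does not measure how many venous cells recombined.

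The fit has 1 residual degree of freedom and the ages are its only repeats, so a gene with a large effect at 1 age and a small one at the other can miss the threshold. Without the age term 1 gene passed. With 1 library left out the age term could not be fitted either, and 4 genes passed when WT at P6 was left out, 59 when KO at P6 was, 6 for WT at P10 and 74 for KO at P10. DESeq2 called 101 genes on the same counts, and with the rule that omits Ackr1 and Vcam1, which holds 593, 295, 1035 and 913 cells, edgeR called 1127.

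Interferon-stimulated genes, which cells switch on when interferon signals through STAT proteins, rose together in venous cells of KO. Of 24 tested, 23 rose and none fell, with a median log2 difference of 3.23, against 1.99% of all genes rising and a median of -0.014. All 24 were above 0. In other endothelial cells 24 of 24 rose, against 5.26% of all genes there (8.92% passed in either direction), with a median of 2.58. The member that did not pass was Iigp1, an immunity-related GTPase, which measured 1.80 and 50.0 CPM in WT and KO at P6, then 27.0 and 36.2 CPM at P10 (log2 difference 1.59, edgeR adjusted p = 0.176).

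The motif GAAANNGAAA, or TTTCNNTTTC on the other strand, is the core of the element bound by interferon regulatory factors, and it was sought on both strands in the 250 bases upstream of each gene start in RefSeq (GRCm38.p6). Of 18 listed genes with a promoter in that table, 8 (44.4%) held it, compared with 234 of 7714 tested genes (3.03%) and 978 of 32851 promoters of the same length (2.98%). The stretches around the matches of 3 listed genes whose levels are given below are shown 5′ to 3′ on the gene's strand, with motif letters in capitals. Isg15 holds 3 overlapping matches, Rsad2 has 1 and Ifit1 has 2.
Isg15, chr4:156200850-156200921, minus strand: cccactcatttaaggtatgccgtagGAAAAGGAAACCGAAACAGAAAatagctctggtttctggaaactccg
Rsad2, chr12:26456538-26456597, minus strand: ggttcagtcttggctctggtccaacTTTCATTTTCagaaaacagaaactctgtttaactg
Ifit1, chr19:34640760-34640838, plus strand: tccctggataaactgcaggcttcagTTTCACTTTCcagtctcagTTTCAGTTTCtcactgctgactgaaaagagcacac
A match describes these letters only, and no binding was measured.

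Isg15, a ubiquitin-like antiviral protein (chromosome 4, 156199424 to 156200818, minus strand), measured 15.3 and 459 CPM in WT and KO at P6, 23.0 and 105 CPM at P10, and 93.0 with vehicle and 40.0 with rapamycin. Both KO libraries of P6 and P10 were above both WT libraries, and the rapamycin library lay below vehicle. It rose by 3.47 ± 0.45 on the log2 scale (SE, edgeR adjusted p = 0.00133). Irf7, the transcription factor that amplifies the interferon response, measured 13 and 275 CPM in WT and KO at P6, 3.57 and 39.5 CPM at P10, and 24.2 with vehicle and 7.81 with rapamycin. It rose by 4.07 ± 0.26 on the log2 scale (SE, edgeR adjusted p = 9.62e-06), with no overlap between WT and KO. Rsad2, an antiviral enzyme, measured 0.900 and 119 CPM in WT and KO at P6, 0.794 and 47.6 CPM at P10, and 42.3 with vehicle and 2.81 with rapamycin, and rose by 6.45 ± 0.35 on the log2 scale (SE, edgeR adjusted p = 6.89e-06). A few cells carried much of it: 1 cell held 36.2% of the Rsad2 UMIs in KO at P6 and 43.3% in KO at P10. Isg15 was spread more widely, in 88 of 100 cells in KO at P6 and 118 of 348 in KO at P10, with at most 12.5% of a library's UMIs in 1 cell.

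Ifit1, which binds foreign RNA, measured 1.35 and 105 CPM in WT and KO at P6, 0.397 and 32.3 CPM at P10, and 9.28 with vehicle and 4.52 with rapamycin. It rose by 6.17 ± 0.35 on the log2 scale (SE, edgeR adjusted p = 7.23e-06), with both KO libraries above both WT libraries. The WT levels of Rsad2 and Ifit1 rest on 1 to 3 UMIs per library, so their KO over WT ratios carry wide exact 95% counting intervals (in parentheses), at P6 and P10 133 (36.3 to 1104) and 59.9 (16.3 to 499) for Rsad2. Ifit1 had 77.7 (26.1 to 380.3) and 81.3 (14.3 to 3238). Other members had log2 differences below the list median. Ifitm3, which blocks viral entry, measured 415 and 3041 CPM in WT and KO at P6, 541 and 1368 CPM at P10, and 1169 with vehicle and 488 with rapamycin, and rose by 2.05 ± 0.29 on the log2 scale (SE, edgeR adjusted p = 0.00253). Bst2, a protein that tethers virus particles, rose by 2.42 ± 0.27 on the log2 scale (SE, edgeR adjusted p = 0.000603), with levels of 124 and 1097 CPM in WT and KO at P6, then 107 and 365 CPM at P10. Genes of antigen presentation were among them: B2m, the invariant chain of class I molecules, measured 839 and 2947 CPM in WT and KO at P6, 728 and 1704 CPM at P10, and 549 with vehicle and 253 with rapamycin. It rose by 1.47 ± 0.18 on the log2 scale (SE, edgeR adjusted p = 0.000987), and the peptide transporter Tap1 and the immunoproteasome subunits Psmb8 and Psmb9 rose by 2.12, 2.09 and 1.72. Ifit3b had 0 UMIs in both WT libraries and was at least 18.5-fold higher in KO at P6 and at least 7.48-fold at P10, against a floor of 3 counts per library. Its reads can be shared with its near-identical neighbour Ifit3.

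The ratios of KO over WT were higher at P6 than at P10. Over all 24 members, with no filter on level, the list median of KO over WT was 3.75 at P6 and 2.09 at P10. At P6 24 members and at P10 23 were at least 2-fold higher in KO, against 5.45% and 4.84% of all genes with a UMI. Within KO the median of P10 over P6 was -1.63, with 22 of 24 at least 2-fold lower at P10 (all genes 5.22%). Within WT the median of the same 24 was -0.058, with 3 at least 2-fold lower (all genes 4.95%), and 7 of the 24 reached 20 CPM and 30 UMIs there. This difference between ages was not tested, as each age has 1 library per genotype. The count of rising members was 24 with the rule that omits Ackr1 and Vcam1 and 24 without cells holding markers of other types. It was 16 of 23 in DESeq2, 14 of 21 with at least 4 venous markers and 0 of 7 after thinning, which left 10 to 64 cells per library. Without the age term it was 0, and with 1 library left out, also without that term, it was 0 (WT at P6), 13 (KO at P6), 0 (WT at P10) and 23 (KO at P10), while all members tested were above 0 in each of these fits.

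**Figure D3:**
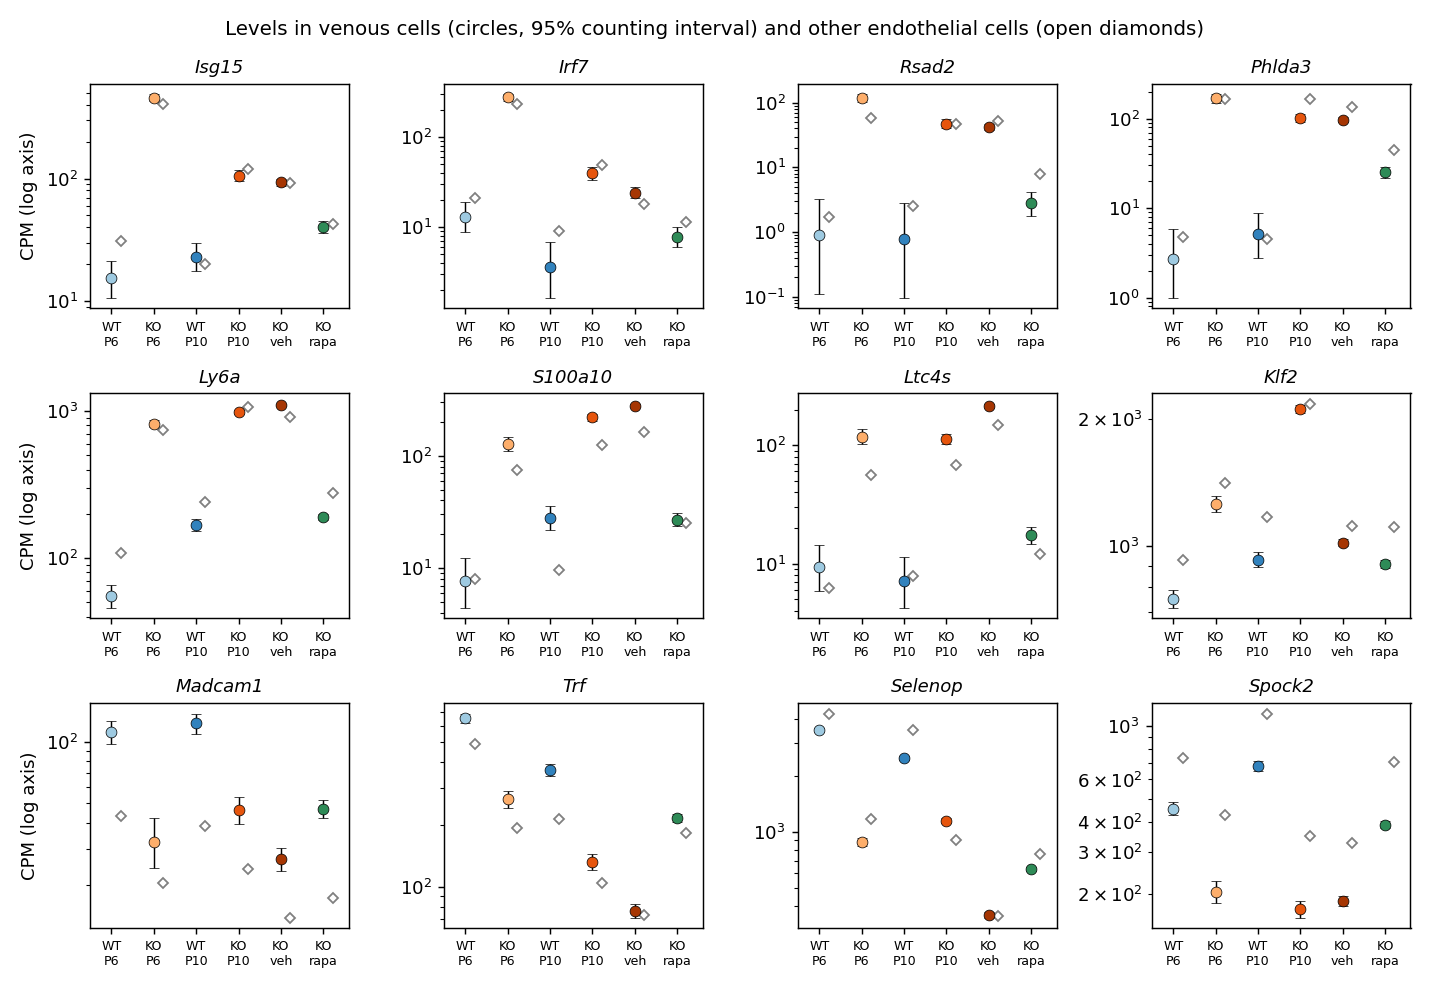
Levels of 12 genes in CPM (log axis) in venous cells, with exact 95% counting intervals (filled circles), and in other endothelial cells (open diamonds), in the 6 libraries. Isg15, Irf7, Rsad2, Phlda3, Ly6a, S100a10, Ltc4s and Klf2 are higher and Madcam1, Trf, Selenop and Spock2 lower in both KO libraries of P6 and P10 than in both WT libraries.

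Targets of p53, the transcription factor of the DNA damage response, rose in part. Of 12 tested, 8 rose and none fell, against 1.99% of all genes rising, with a median of 1.78, and 11 of 12 rose in other endothelial cells, against 5.26%. Phlda3, an inhibitor of the kinase AKT, measured 2.70 and 169 CPM in WT and KO at P6, 5.16 and 102 CPM at P10, and 97.5 with vehicle and 25.1 with rapamycin, and rose by 4.96 ± 0.32 on the log2 scale (SE, edgeR adjusted p = 9.62e-06). Gdf15, a secreted stress cytokine, measured 3.15 and 114 CPM in WT and KO at P6, 3.57 and 32.8 CPM at P10, and 19.7 with vehicle and 9.77 with rapamycin, and rose by 4.23 ± 0.36 on the log2 scale (SE, edgeR adjusted p = 9.67e-05). One cell held 44.1% of its UMIs in KO at P10 and 61.2% with rapamycin, and without that cell the levels were 18.4 and 3.81 CPM. Ccng1 and the exonuclease gene Aen rose by 2.53 and 2.07, and Mdm2, which targets p53 for degradation, by 0.96 (edgeR adjusted p = 0.0415). Eda2r had 0 UMIs in WT and was at least 12.6-fold and 7.24-fold higher in KO at P6 and P10.

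Cdkn1a, the cell cycle inhibitor p21 and the best known p53 target, did not pass. It measured 1087 and 1588 CPM in WT and KO at P6, 2164 and 1548 CPM at P10, and 545 with vehicle and 655 with rapamycin. KO was above WT at P6 and below it at P10, and its log2 difference was -0.019 ± 0.22 (SE, edgeR adjusted p = 0.981). In other endothelial cells the difference was 0.50, and the test of venous against other cells gave -0.51 ± 0.082 (SE, edgeR adjusted p = 0.000429). Bax, a pore-forming cell death protein, had 0.75 and did not pass (edgeR adjusted p = 0.0888).

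Calcium-binding S100 and annexin genes rose in KO venous cells for 5 of 11 tested, against 1.99% of all genes, none fell, and the median was 0.44. S100a10, which pairs with annexin A2 at the cell surface, measured 7.65 and 127 CPM in WT and KO at P6, 28.2 and 219 CPM at P10, and 278 with vehicle and 27.0 with rapamycin. Both KO libraries of P6 and P10 were above WT, and it rose by 3.30 ± 0.25 on the log2 scale (SE, edgeR adjusted p = 3.54e-05). Its partner Anxa2 measured 381 and 752 CPM in WT and KO at P6, 186 and 507 CPM at P10, and 839 with vehicle and 343 with rapamycin, and rose by 1.16 ± 0.17 on the log2 scale (SE, edgeR adjusted p = 0.00268). S100a6 and Anxa1 rose by 3.38 and 2.27, with 39.1% of the S100a6 UMIs of KO at P6 in 1 cell (70.1 CPM, 43.8 without it), and S100a11 by 0.92, while the 6 that did not pass, S100a13, S100a16, Anxa3, Anxa4, Anxa5 and Anxa6, lay between -0.0063 and 0.44.

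Other genes among the 10 with the largest rise at both ages were Ltc4s and Ly6a. Ltc4s, the enzyme that makes leukotriene C4, a lipid that raises venular leak, measured 9.45 and 118 CPM in WT and KO at P6, 7.15 and 114 CPM at P10, and 215 with vehicle and 17.5 with rapamycin. It rose by 3.76 ± 0.22 on the log2 scale (SE, edgeR adjusted p = 7.45e-06), and 1 cell held 25.8% of the UMIs in KO at P6. Ly6a, the surface antigen Sca-1, measured 55.3 and 819 CPM in WT and KO at P6, 168 and 979 CPM at P10, and 1099 with vehicle and 189.8 with rapamycin, and rose by 3.12 ± 0.27 on the log2 scale (SE, edgeR adjusted p = 0.000106). Its relative Ly6c1 measured 204 and 573 CPM in WT and KO at P6, 450.2 and 902 CPM at P10, and 583 with vehicle and 278 with rapamycin, and rose by 1.19 ± 0.17 on the log2 scale (SE, edgeR adjusted p = 0.00268). In all 3 genes both KO libraries lay above both WT libraries. Ccdc184, of little-known function, rose by 4.68 from 1 and 3 UMIs in WT at P6 and P10, with KO over WT ratios of 44.7 (7.48 to 1818) and 22.4 (7.45 to 111).

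Genes of tip cells and vascular leak rose for 7 of 17 tested, against 1.99% of all genes, with none falling and a median of 0.63. Apln, the ligand of the apelin receptor and a tip cell gene, measured 343 and 874 CPM in WT and KO at P6, 483 and 866 CPM at P10, and 354 with vehicle and 648 with rapamycin, and rose by 1.05 ± 0.17 on the log2 scale (SE, edgeR adjusted p = 0.00648). The caveolin Cav1 rose by 0.76, Kcne3 by 1.96, the VEGF relative Pgf by 1.29 and Igfbp3 by 1.27. One cell held 49.5% of the Pgf UMIs in KO at P6 (59.1 CPM, 30.3 without it). After thinning the Apln value was -0.20, and with at least 4 venous markers the Igfbp3 value was -0.058. Esm1, a tip cell proteoglycan, rose by 3.59 but was found in only 2, 4, 9 and 35 cells of WT P6, KO P6, WT P10 and KO P10, with a KO over WT ratio of 25.7 (6.65 to 220.2) at P6, where WT held 2 UMIs and 1 KO cell held 68.4% of the KO UMIs (23.2 CPM, 7.48 without it). Plvap, the protein of fenestral diaphragms, rose by 2.61 at levels of 2.25 and 6.70 CPM in WT and KO at P6, then 1.99 and 20.6 CPM at P10, with 56.8% of the UMIs of KO at P10 in 1 cell and 8.93 CPM without it. Angpt2, an antagonist ligand of the receptor Tie2, measured 120.1 and 135 CPM in WT and KO at P6, then 274 and 236 CPM at P10, with a log2 difference of -0.089 ± 0.17 (SE, edgeR adjusted p = 0.854).

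Several capillary and barrier genes fell in the KO venous cells. Of 13 capillary markers 6 fell and none rose, against 1.27% of all genes falling, with a median of -0.72. In other endothelial cells 9 of 13 fell, against 3.66%. Spock2 measured 454 and 205 CPM in WT and KO at P6, 685 and 173 CPM at P10, and 187 with vehicle and 389 with rapamycin. It fell by 1.62 ± 0.20 (log2, SE, edgeR adjusted p = 0.00107), with both KO libraries below both WT libraries. Mfsd2a, whose promoter drives the Cre, measured 415 and 319.8 CPM in WT and KO at P6, 475 and 157 CPM at P10, and 105 with vehicle and 262 with rapamycin. It fell by 1.04 ± 0.24 (SE, edgeR adjusted p = 0.0438), and the KO library at P10 was well below the one at P6. Ivns1abp, the monocarboxylate transporter Slc16a1, the amino acid transporter Slc7a5 and the organic anion transporter Slc22a8 made up the other 4, with falls of 0.72 to 0.94.

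Of 21 blood-brain barrier genes tested, 7 fell, against 1.27% of all genes, and none rose, with a median of -0.53. Besides Mfsd2a, Slc16a1, Slc7a5 and Slc22a8, they included the Wnt target Apcdd1 (-0.94) and the exporter Abcc4 (-1.21). The other 14 did not pass. Among them, the tight junction genes Ocln and Tjp1 measured 77.4 and 81.6 CPM in WT and KO at P6, then 81.4 and 59.3 CPM at P10 (-0.25, edgeR adjusted p = 0.576) for Ocln and 112 and 67.6 CPM in WT and KO at P6, then 112 and 79.9 CPM at P10 (-0.65, edgeR adjusted p = 0.0705) for Tjp1. The glucose transporter Slc2a1 measured 569 and 872 CPM in WT and KO at P6, then 827 and 859 CPM at P10 (0.29, edgeR adjusted p = 0.467).

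Carriers of iron, selenium and lipids fell for 5 of 10 tested, against 1.27% of all genes, and rose for none, with a median of -1.15. Selenop, the selenium carrier, measured 3496 and 879.7 CPM in WT and KO at P6, 2472 and 1149 CPM at P10, and 359.7 with vehicle and 634 with rapamycin. It fell by 1.59 ± 0.21 (SE, edgeR adjusted p = 0.00129), with no overlap between the genotypes. Transferrin, Trf, measured 655 and 266 CPM in WT and KO at P6, 368 and 132 CPM at P10, and 76.7 with vehicle and 215 with rapamycin, and fell by 1.44 ± 0.16 (SE, edgeR adjusted p = 0.000528). The lipid carrier Apoe, the lysophospholipase Enpp2 and Scgb3a1 fell by 1.40, 1.32 and 1.42. The ferritin heavy chain Fth1 measured 11540.4 and 4051 CPM in WT and KO at P6, then 8833 and 6953 CPM at P10 and did not pass (-0.98, edgeR adjusted p = 0.0511). Astrocytes, which also make Apoe, had summed markers of 123 and 112 CPM in WT and KO at P6, then 207 and 162 CPM at P10, and their part was not tested.

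Madcam1, which was higher in venous than in other endothelial cells of each library, measured 111 and 32.3 CPM in WT and KO at P6, 123 and 46.2 CPM at P10, and 26.6 with vehicle and 47.1 with rapamycin. Both KO libraries lay below both WT libraries, and it fell by 1.62 ± 0.19 (log2, SE, edgeR adjusted p = 0.000673). It fell in other endothelial cells too, by 0.90, and the difference between the classes did not pass (-0.71 ± 0.17, SE, edgeR adjusted p = 0.0541). Other genes with the largest fall at both ages were the amino acid transporter Slc7a8 (-1.70), Igfbp2 (-1.96), the Rac activator Prex1 (-1.50), the phosphodiesterase Pde10a (-1.56), the matrix protein Hmcn1 (-1.75), Pou2f2 (-1.40) and the mitochondrial carrier Slc25a33 (-1.69). One WT cell at P10 held 48.5% of that library's Igfbp2 UMIs, and without WT at P10 the Slc25a33 value was 0.15.

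**Figure D4:**
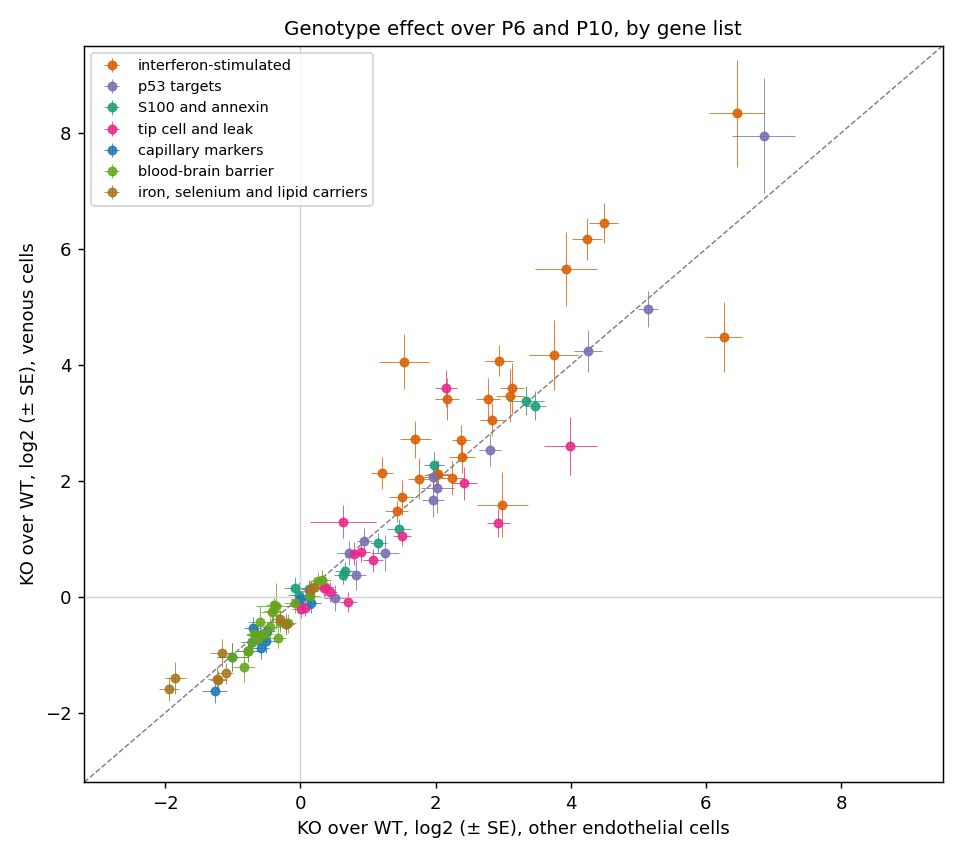
KO over WT on the log2 scale with SE bars for genes of 7 lists, in other endothelial cells (horizontal axis) and venous cells (vertical axis), with a dashed line of equal values. Interferon-stimulated genes lie above 0 on both axes, and capillary, barrier and carrier genes that fell lie below 0 on both axes.

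The ages were also described separately. At P6, 252 of 5837 measured genes (4.32%) were at least 2-fold higher and 91 (1.56%) at least 2-fold lower in KO, and at P10 158 (2.77%) and 123 (2.16%) of 5699. The same direction at both ages was seen for 99 genes, 76 higher and 23 lower. The 5 genes with the largest drop at P6 were Apoe (621 to 142 CPM), Selenop, Igfbp2, the junction protein gene Myzap (50.4 to 14.0 CPM) and Madcam1, all found in many cells. At P10 they were Ptgds, Acta2, Tagln, Alas2 and Col1a2, which other cell types make. Ptgds was 304 CPM in WT at P10, with 99.6% of its UMIs in 1 cell, and 1 cell held 86.3% of the Acta2 and 92.1% of the Tagln UMIs. Without cells that hold markers of other types, Tagln and Col1a2 had log2 ratios of 1.22 and 0.86 at P10, the other direction.

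The venous genes outside the rule did not pass. Of 19 further venous markers tested, 0 rose and 0 fell, against 1.99% and 1.27% of all genes, with a median of -0.10. With so few genes tested, this count does not set them apart from all genes, of which 3.26% passed. An unadjusted edgeR p under 0.05 was seen for 4 of them, and for 1619 of all 9683 genes. Icam1 measured 1589.5 and 1352 CPM in WT and KO at P6, then 2107 and 2116 CPM at P10, a log2 difference of -0.16 ± 0.16 (SE, edgeR adjusted p = 0.677). Nrp2 measured 47.7 and 40.2 CPM in WT and KO at P6, then 83.8 and 114 CPM at P10 and Aplnr 283 and 242 CPM in WT and KO at P6, then 187 and 302 CPM at P10, with log2 differences of 0.11 and 0.19. Among genes of the rule, Ackr1 measured 25.2 and 83.5 CPM in WT and KO at P6, 58.8 and 238 CPM at P10, and 103 with vehicle and 22.8 with rapamycin. Vcam1 measured 24.3 and 62.8 CPM in WT and KO at P6, 18.7 and 151 CPM at P10, and 117 with vehicle and 21.6 with rapamycin. Nr2f2 measured 75.6 and 62.1 CPM in WT and KO at P6, 103 and 74.0 CPM at P10, and 101 with vehicle and 85.2 with rapamycin and Vwf 161 and 86.5 CPM in WT and KO at P6, 226 and 142 CPM at P10, and 196 with vehicle and 245 with rapamycin. Ackr1 and Vcam1 were thus higher, and Nr2f2 and Vwf lower, in KO than in WT at both ages, and no test is given because these genes chose the cells.

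Among venous and flow-linked transcription factors 1 of 19 rose, against 1.99% of all genes, and 3 fell, against 1.27%, with a median of -0.49. Klf2 measured 751 and 1261 CPM in WT and KO at P6, 929 and 2112 CPM at P10, and 1019.9 with vehicle and 908 with rapamycin. Both KO libraries lay above both WT libraries, and it rose by 0.92 ± 0.17 on the log2 scale (SE, edgeR adjusted p = 0.0107). Klf4 measured 518 and 619 CPM in WT and KO at P6, 1101 and 1473 CPM at P10, and 683 with vehicle and 729 with rapamycin, and did not pass, with 0.29 ± 0.15 on the log2 scale (SE, edgeR adjusted p = 0.382). The 3 that fell were Gata2, an endothelial and blood lineage factor (-0.70), Tal1, which acts with it (-1.10), and the zinc finger gene Tshz2 (-0.78). In the wider list of Klf and CCM genes Klf2 alone rose out of 20, against 1.99% of all genes, with a median of -0.042. Krit1 and Ccm2, the partners of Pdcd10, had 0.22 and -0.19, and the Klf target Thbd had 0.10, all without passing.

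Of 18 leukocyte adhesion and chemokine genes, 2 rose, against 1.99% of all genes, and 1 fell (Madcam1), against 1.27%. Their median was 0.13. Ccl2, which draws monocytes, measured 1.35 and 35.9 CPM in WT and KO at P6, 19.1 and 91.8 CPM at P10, and 18.4 with vehicle and 12.5 with rapamycin, and rose by 2.69 ± 0.34 on the log2 scale (SE, edgeR adjusted p = 0.00107). At P6, where WT held 3 UMIs, the KO over WT ratio was 26.6 (8.68 to 133). It sat in 11 cells of KO at P6 and 23 of KO at P10, with 44.1% and 29.4% of the UMIs in 1 cell. Ccl5 had 0 UMIs in WT venous cells and was at least 112-fold and 6.31-fold higher in KO at P6 and P10, but 1 cell held 86.6% of its UMIs in KO at P6. Cxcl1 measured 534 and 622 CPM in WT and KO at P6, 1257 and 1355 CPM at P10, and 169 with vehicle and 221 with rapamycin and Cxcl2 226 and 318 CPM in WT and KO at P6, 838 and 927 CPM at P10, and 202 with vehicle and 221 with rapamycin, with log2 differences of 0.11 and 0.26 that did not pass. NF-kB response genes had 1 rise (Ccl2) and 2 falls (Nfkb1, -0.83, and Csf3, -1.12) among 20 tested, against the same 1.99% and 1.27%. Without WT at P10 the Csf3 value was 1.88.

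In the remaining lists the counts of members that passed stand against 1.99% of all genes rising and 1.27% falling. Coagulation genes outside the rule had 2 rises among 13, which are Anxa2 and S100a10 again, and the clot regulators Thbd, Procr, Plat and Tfpi did not pass. Arterial markers had 3 falls among 13, the Notch ligand Dll4 (-0.80), the Notch target Hey1 (-0.85) and Mgp (-1.40), whose value without WT at P10 was 1.97. BMP and TGF-beta genes had 1 fall among 16, the inhibitory Smad6 (-1.06). Genes of ribosome production and nucleotide synthesis had 2 rises among 19 and a median of 0.40, and amino acid genes under ATF4 had 2 rises (Phgdh and Gars) and 1 fall (Slc7a5) among 18. Of 19 S phase genes 0 passed, with a median of 0.47. An unadjusted edgeR p under 0.05 was seen for 7 of them, and for 1619 of all 9683 genes. Mitotic genes had 2 rises among 11 (Ccnb1 and Cdc20) in cells chosen for the lack of Top2a. Red cell markers fell for 5 of 5 with a median of -2.96, and pericyte markers passed for 0 of 10, with log2 ratios of KO over WT at a median of 0.82 at P6 and -1.27 at P10.

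Whether the genotype effect differed between venous and other endothelial cells was tested on 8 sums with the library as a block. Of 11411 genes 49 passed (0.429%), 12 with a higher effect in venous cells (0.105%) and 37 with a lower one (0.324%). For most genes described above, including 23 of 24 interferon-stimulated genes and all capillary and barrier genes, the difference did not pass, which does not show that the classes responded alike.

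Ly6a and Ly6c1 had a higher genotype effect in venous cells. In WT both were lower in venous than in other cells, with Ly6c1 at 204 against 466 CPM at P6 and 450.2 against 1181 CPM at P10. In KO the ratio was nearer to 1, at 573 against 821 and 902 against 1553 CPM. The log2 ratio of Ly6a in venous over other cells was -0.96 and -0.51 in WT and 0.15 and -0.11 in KO at P6 and P10. The differences of effect were 0.63 ± 0.080 for Ly6c1 and 0.69 ± 0.11 for Ly6a (SE, edgeR adjusted p = 1.68e-05 and 0.000346). Ccl2 differed by 1.41 (edgeR adjusted p = 0.00276), a value of -0.39 with the rule that omits Ackr1 and Vcam1. Among venous markers, Ctsc had a difference of 0.73 (edgeR adjusted p = 0.021) with -0.092 in venous and -0.81 in other cells.

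Of 17 tip cell and leak genes, 3 (Apln, Angpt2 and Igfbp3) passed with a lower effect in venous cells, against 0.324% of all genes, and 1 (Esm1) with a higher one, against 0.105%. Angpt2 had -0.089 in venous and 0.70 in other endothelial cells, a difference of -0.78 ± 0.11 (SE, edgeR adjusted p = 5.54e-05). In WT it was 120.1 CPM in venous and 90.8 CPM in other cells at P6, then 274 and 177 CPM at P10. In KO the values were 135 and 173 CPM at P6, then 236 and 259.6 CPM at P10. Igfbp3, a binding protein of insulin-like growth factors, rose in both classes, by 1.27 and 2.93, with a difference of -1.68 (edgeR adjusted p = 5.25e-05). The membrane protein gene Emp1 rose by 1.07 and 2.65, with a difference of -1.58 (edgeR adjusted p = 0.000324). Apln rose by 1.05 and 1.51, with a difference of -0.46 (edgeR adjusted p = 0.00507). The urokinase receptor Plaur and Cdkn1a likewise had lower effects, with differences of -0.51 and -0.51. Mgp differed by -1.35 (edgeR adjusted p = 0.00276), a value of 1.85 without WT at P10.

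Age was compared within each genotype with 1 library per age and no test. In WT, 278 of 5753 genes (4.83%) were at least 2-fold higher and 162 (2.82%) at least 2-fold lower at P10 than at P6, and in KO 171 (2.92%) and 187 (3.19%) of 5859. The venule genes Selp and Lrg1, scarce at P6, had more UMIs at P10, mostly in single cells. Selp measured 0 and 1.83 CPM in WT and KO at P6, then 11.5 and 9.18 CPM at P10. One cell held 75.9% (WT) and 51.5% (KO) of the UMIs at P10, and without it the levels were 2.79 and 4.46 CPM. Lrg1 measured 0 and 1.22 CPM in WT and KO at P6, then 12.7 and 6.68 CPM at P10, with 56.2% and 58.3% in 1 cell at P10 and 5.58 and 2.79 CPM without it. Cxcl2 was also higher at P10, with log2 ratios of 1.89 in WT and 1.54 in KO, as was Cxcl1, with 1.23 and 1.12. Over the NF-kB response list, 21 of 23 members were above 0 in WT and 19 in KO, against 37.7% and 38% of all genes with a UMI.

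The P9 pair asks how venous cells of KO mice differed with rapamycin, which blocks mTORC1. Of 6049 genes measured, 127 (2.1%) were at least 2-fold higher and 171 (2.83%) at least 2-fold lower with rapamycin, and with TMM-scaled library sizes the counts were 166 and 145. The median log2 ratio of all genes was -0.090. Median depth per cell differed, with 9612 UMIs for vehicle and 16417 for rapamycin, as did red cell markers, with 0.431 and 1462 CPM. Without the venous cells whose barcode occurs in both libraries the counts were 127 and 176.

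Of the 193 genes that rose in KO at P6 and P10, 181 were lower and 12 higher with rapamycin than with vehicle, and 105 were at least 2-fold lower. Of all 9683 genes tested, 57.7% were lower and 3.84% at least 2-fold lower. Of the 123 that fell, 110 were higher with rapamycin and 37 at least 2-fold higher, against 42.3% and 2.74%. Among risen genes that were higher with rapamycin were Apln, with a ratio of 1.83 (1.75 to 1.91), and Plvap, with 2.87 (2.11 to 3.93), and the tip cell and leak list had a median log2 ratio of 0.20. S100a10 had a ratio of 0.0969 (0.0841 to 0.111) of rapamycin to vehicle, with the exact 95% counting interval in parentheses, and Ltc4s 0.0813 (0.0681 to 0.0964). Ly6a had 0.173 (0.164 to 0.182) and Ly6c1 0.477 (0.454 to 0.501). Interferon-stimulated genes were at least 2-fold lower for 19 of 24, against 6.05% of all genes with a UMI, with a median of -1.25. Isg15 had 0.431 (0.378 to 0.490) and Rsad2 0.0664 (0.0416 to 0.101), with 36.2% of the vehicle UMIs of Rsad2 in 1 cell. S100 and annexin genes were at least 2-fold lower for 6 of 12 and p53 targets had a median of -0.92, with Phlda3 at 0.258 (0.221 to 0.300). Ackr1 and Vcam1, which chose the cells, were 103 and 117 CPM with vehicle and 22.8 and 21.6 CPM with rapamycin. S phase genes had a median of -0.89. Coagulation genes had a median of -0.56, with 10 of 17 below 0 and 7 above.

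Most capillary, barrier and arterial genes were higher with rapamycin. Barrier genes had a median of 0.72, with 6 of 21 at least 2-fold higher, against 6.48% of all genes with a UMI, and capillary genes a median of 0.72, with 3 of 13. Mfsd2a had a ratio of 2.51 (2.32 to 2.71) and Slco1c1 of 2.87 (2.73 to 3.01). Arterial markers outside the rule had a median of 0.84, with 7 of 16 at least 2-fold higher, among them Hey1, with 3.29 (2.79 to 3.89), and the chemokine receptor Cxcr4, with 6.58 (4.90 to 8.98). Angpt2 had 6.21 (5.47 to 7.06), Trf 2.81 (2.57 to 3.07) and Pdcd10 itself 1.78 (1.57 to 2.01). The targeted gene thus differed between the 2 KO libraries by more than counting error. The calcium channel gene Cacna1e was 0.863 CPM with vehicle and 26.7 CPM with rapamycin, a ratio of 31 (15.4 to 72.7), but at P6 and P10 it was 3.60 to 9.53 CPM in WT and KO. Ptgs2 was 8.63 and 60.9 CPM, a ratio of 7.06 (5.56 to 9.05), and the receptor gene Clec1b 4.31 and 32.7 CPM, a ratio of 7.58 (5.42 to 10.9).

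Several venous and flow genes lay close together in the 2 libraries. Icam1 had a ratio of 1.16 (1.12 to 1.20), Klf2 of 0.891 (0.864 to 0.918) and Klf4 of 1.07 (1.03 to 1.11). The 22 further venous markers had a median log2 ratio of 0.037. Genes with the lowest ratios included Ccdc184, at 0.0292 (0.0132 to 0.0560), the interferon-induced Ifi27l2a, at 0.0291 (0.0116 to 0.0608), and Ccl5, with 62.9% of its vehicle UMIs in 1 cell. The haem-binding protein Hebp1 had a ratio of 0.0355 (0.0188 to 0.0614) and the protease inhibitor Serpinb1a of 0.0524 (0.0275 to 0.0910). Hebp1 was 44.7 CPM with vehicle and at most 7.31 CPM in the libraries of P6 and P10, where it did not pass in KO.

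**Figure D5:**
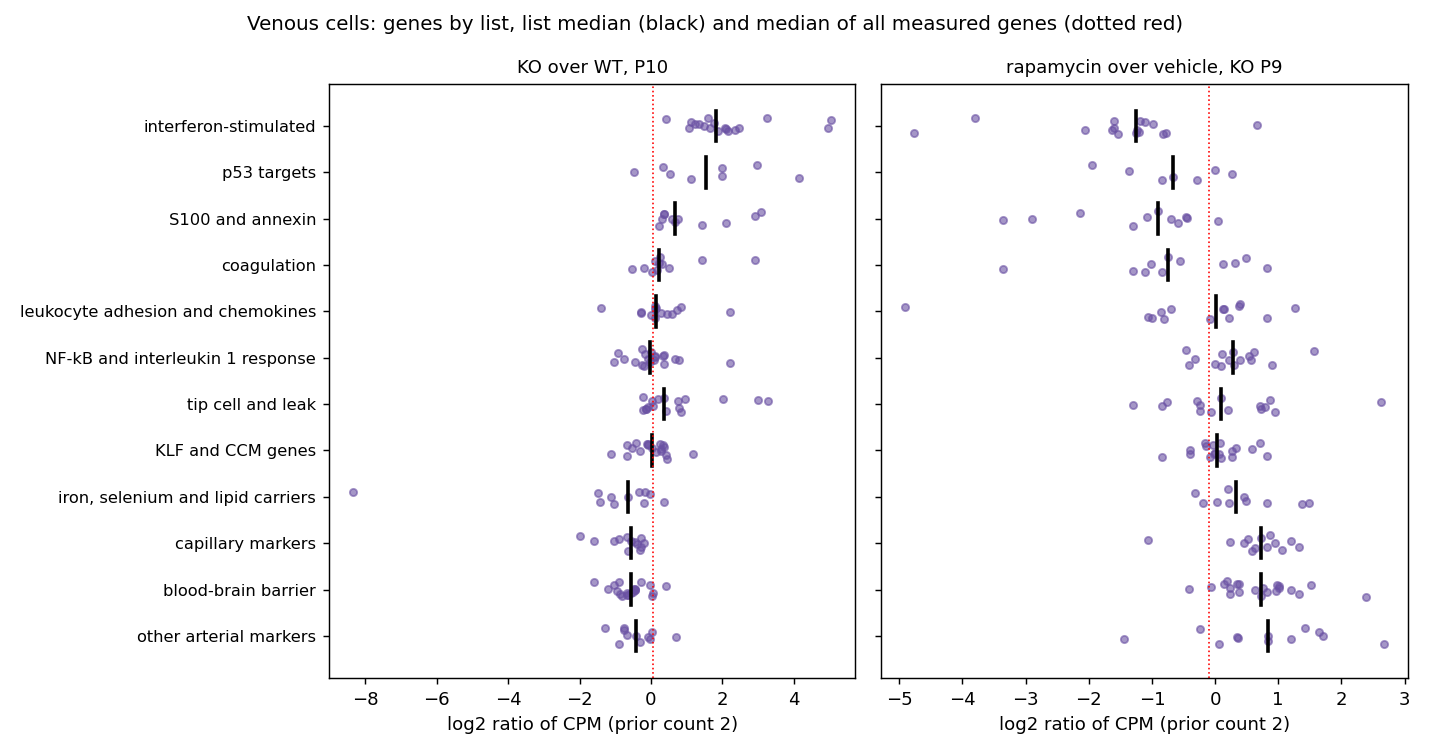
Log2 ratios of CPM in venous cells (horizontal axes) by gene list for KO over WT at P10 (left) and rapamycin over vehicle at P9 (right). Points are genes that reach 20 CPM and 30 UMIs in the higher library, black bars are list medians and the dotted line is the median of all measured genes, and the interferon-stimulated median is 1.82 on the left and -1.25 on the right.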

How the data were processed

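The 6 libraries were made with a droplet 3' kit and counted with Cell Ranger 6.0.1 on mm10, as the submitters' processing notes list. The deposited matrices hold raw UMI counts. No source used here gives a filter on barcodes or the sort gate. Library totals were 10807651 to 40197132 UMIs. The members, the gene lists and the tests were chosen with earlier results of these data known. UMI counts were summed over venous cells per library. The 4 sums of P6 and P10 were tested in edgeR 4.0.16 (R 4.3.3) with TMM scaling, the filterByExpr filter, genotype and age terms and Benjamini-Hochberg adjustment at 0.05. The difference between classes was fitted on 8 sums with the library as a block, class, and class by age and by genotype. Named genes are members of 35 lists and, beyond them, those with the largest ratios in the same direction (10 each way, or 5 at a single age), reaching 20 CPM and 30 UMIs in the higher library. Some of these genes are not reported here. Log2 ratios within pairs use a prior count of 2. Intervals are exact at 95% (Poisson, Clopper-Pearson or conditional binomial) and cover counting error only. Counting was not stated to use strand, and 78 genes that share a symbol were kept by identifier. Scrublet (scanpy 1.11.5) set its threshold so that 0 to 2 barcodes per library were marked, so doublets were kept, and removal of the highest scores at 0.8% per 1000 barcodes was an alternative. The alternatives were DESeq2 1.42.0, its size factors, other filters, terms and rules, and each library left out. The fits were tested on simulated data. There the genotype fit in venous cells called 1.5% of 200 genes changed 1.5-fold, 49.5% at 2-fold and 91.5% at 4-fold.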

Additional observations from a re-analysis of the deposited data

Results flagged for a closer look

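The genotype effect differed between venous and other endothelial cells by a test of the difference itself (edgeR's quasi-likelihood test, Benjamini-Hochberg adjusted over 11411 genes) for the genes given here, on the log2 scale. It was higher in venous cells for Ly6c1 (0.63), Ly6a (0.69) and Ccl2 (1.41). For Lyz2, a lysozyme of macrophages, the difference was 9.53, but Lyz2 was 0 CPM in venous cells of both WT libraries and 0.609 and 10.6 CPM in KO at P6 and P10, with 97.4% of the KO UMIs at P10 in 1 of 2 cells. It was lower in venous cells for Igfbp3 (-1.68), Emp1 (-1.58), Angpt2 (-0.78), Cdkn1a (-0.51) and Igfbp7 (-0.34). Of 25 named genes that passed this test, 25 lost the call without the age term and 13 under DESeq2 size factors. With the rule that omits Ackr1 and Vcam1, 11 of the 25 lost it and 2 changed direction.

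In 5 genes of other cell types the venous sums of KO lay above WT at one age and below it at the other by at least 2-fold, and this difference between ages was not tested. The potassium channel subunit Abcc9 of pericytes had 1.39 at P6 and -1.39 at P10 on the log2 scale, the pericyte gene Vtn 1.30 and -1.68, and the collagen gene Col1a2 2.26 and -2.15. The astrocyte gene Gfap had -1.75 and 1.03, and the long non-coding RNA Meg3 had 1.14 and -1.02.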

How the results depend on the processing

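The number of genes passing for genotype in venous cells was 316, and 648 with no filter on low counts, 1 without the age term, 6 under the rule after thinning, 1127 with 2 of Nr2f2, Il1r1, Tmem252 and Vwf, 78 with at least 4 venous markers, 860 without cells holding markers of other types, and 101 in DESeq2. With all 6 libraries it was 0, with 712 genes at an unadjusted edgeR p under 0.05. With 1 library left out and no age term, since 3 libraries leave no residual degree of freedom with it, it was 4 (WT at P6 left out), 59 (KO at P6), 6 (WT at P10) and 74 (KO at P10). For the difference between classes it was 49, and under the same settings in that order 96, 1, 29, 113, 26 and 81, with 19 under DESeq2 size factors and 0 to 39 with 1 library left out. The 0 was without WT at P10, with 473 genes at an unadjusted edgeR p under 0.05. Removal of high doublet scores left 220 and 50 genes.

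The count of genes at least 2-fold apart in venous against other cells in all 6 libraries was 3, and 7 after thinning, 0 with 2 of 4 markers and 7 with at least 4. For rapamycin it was 298, and 607 after thinning. The count at both ages was 99, and 17 after thinning and 56 with at least 4 markers. The venous share was 15.1%, and 2.51% after thinning, 36.6% with 2 of 4 markers and 4.23% with at least 4.

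Of 91 named genes called for genotype, 90 lost the call without the age term and 91 with all 6 libraries. With a library left out, also without that term, 90 lost it for WT at P6, 62 for KO at P6, 84 for WT at P10 and 55 for KO at P10, and it was lost by 44 of 88 in DESeq2, 18 after doublet removal and 6 under other size factors. Values in the other direction were, for genotype, Ccl21a -0.46 and Igfbp3 -0.058 with at least 4 markers, Emp1 -0.33, Csf3 0.12 and Apln -0.20 after thinning, and Slc25a33 0.15, Mgp 1.97 and Csf3 1.88 without WT at P10. For the difference they were Igfbp2 2.03, Ptgs2 -0.28 and Ccl5 -3.16 after thinning, Ccl2 -0.39 and Ccl5 -3.18 with 2 of 4 markers, Ccl5 -2.12 with at least 4, Ccl5 -0.19 without cells of other types, Mgp 1.85 and Iigp1 0.55 without WT at P10, and Apoe -0.17 without KO at P10. Others were Madcam1 in venous over other cells (-0.26 after thinning) and, at P10, Ptgds (0.46 with at least 4 markers), Tagln (1.22) and Col1a2 (0.86) without cells of other types. The cause was not tested, except that thinning leaves 10 to 158 venous cells per library. No paired analysis was possible because the labels carry no replicate numbers and each group has 1 library, so no library of 1 group could be matched to 1 of another. The block in the difference between classes pairs only venous and other cells of the same library. Levels without the cell holding most UMIs of a gene, and list summaries of pairs with no filter on level, were chosen after seeing the data.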
